A study of Mus musculus with 10 samples.

Results

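The 10 arrays of mouse abdominal aorta were divided by how much skeletal muscle actin they held, and the genes that went with that division were described. The sides were selected on the measured level of the Acta1 probe, which reads the gene for skeletal muscle alpha-actin. Arrays with an Acta1 level above 5.5 log2 units of scaled intensity were set against the rest, which put 5 of the 10 arrays in the series on each side. They are called here the Acta1-high and the Acta1-low arrays. These sides are not groups of the study, and Acta1 itself, with 1 probe, was left out of the comparison. All mice were male, 14 weeks old and ApoE-/-, lacking apolipoprotein E, and no wild-type animals enter the comparison. Each RNA came from the aortas of a pool of 2 mice, cut where the renal arteries leave: the infrarenal part lies below them and the suprarenal part above. The Acta1-high side held infrarenal arrays 8 and 11 and suprarenal arrays 1, 8 and 12. On the Acta1-low side were infrarenal arrays 1, 6 and 12 and suprarenal arrays 6 and 11. The numbers in the labels were taken as those of the pools, so pools 1, 11 and 12 had an array on each side, pool 8 had both arrays on the high side and pool 6 both on the low side.

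The aortic wall contracts through smooth muscle, which uses its own actin and myosin genes. Skeletal muscle lies along the spine beside the aorta. Its fibres are built of sarcomeres, in which myosin pulls on actin filaments under the control of troponin, and calcium released from the sarcoplasmic reticulum starts each contraction. Fast fibres contract quickly and draw on glycolysis and creatine phosphate, while slow fibres are rich in myoglobin and mitochondria, and each kind uses separate genes for myosin, troponin and the calcium pump.

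Acta1 read 6.64 and 6.23 log2 units on infrarenal arrays 8 and 11, and 5.86, 5.97 and 7.25 on suprarenal arrays 1, 8 and 12. On the low side it read 3.92, 5.30 and 4.36 on infrarenal arrays 1, 6 and 12 and 2.71 and 2.60 on suprarenal arrays 6 and 11. The levels ran without a wide break: the lowest high array, suprarenal 1, and the highest low array, infrarenal 6, were 0.56 log2 units apart. In linear intensity the extremes were 153 on suprarenal array 12 and 6.07 on suprarenal array 11. These values made the division and are given as a description. The sides were set from a level measured on these same arrays, so no adjusted p-value between them tests a treatment or label. Each marks how clearly a gene differed between the sides of the cutoff.

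The other markers named for skeletal muscle, Tnnt1 and Myl2, did not separate the sides. Tnnt1, the slow troponin T gene, lay between -0.52 and -0.15 on Acta1-high arrays infrarenal 8 and 11 and suprarenal 1, inside or below the range of -0.45 to 0.11 on the low side, and at 1.73 and 2.57 on suprarenal arrays 8 and 12. Both markers are slow fibre genes, and the sides differed in fast fibre genes, as the values below show. Suprarenal arrays 8 and 12 stood apart from the rest by their slow fibre genes, and suprarenal array 12 and infrarenal array 6 had the lowest mean levels of brown adipocyte genes, at 1.35 and 1.81 log2 units against 2.12 to 3.69 elsewhere. Calls and the fat and mitochondrial lists are given with and without these arrays, and the fast and slow sarcomere lists with and without suprarenal arrays 8 and 12. In RNA of whole tissue, fewer cells of a type and less RNA per cell cannot be told apart. The amount of RNA amplified was 0.386 ± 0.0862 µg on the high side and 0.424 ± 0.072 µg on the low side (SD, n = 5 each). An exact two-sided permutation test of this difference of -0.038 µg gave p = 0.484, where the smallest p that 252 splits allow is 0.00794. With RNA input as a covariate no probe passed the threshold described next (845 higher at an unadjusted p under 0.05).

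Most genes that passed the threshold between the sides were known genes of skeletal muscle, with those of fast fibres in front. With the region as a covariate, limma called 21 of 36060 probes higher on the Acta1-high arrays at a Benjamini-Hochberg adjusted p under 0.05, which is 0.0582% of those tested, and 0 lower. At an unadjusted p under 0.05 there were 834 higher and 621 lower. The 21 probes covered 17 of 17990 genes (0.0945%), and 4 had no gene name. The differences of the 17 genes lay between 1.81 and 3.34 log2 units, with adjusted p between 0.0269 and 0.045. Of all genes, 48.9% had a positive and 51.1% a negative difference, with a median of -0.0044. In 112 genes (0.623%) all 5 high arrays lay above all 5 low ones, and in 33 (0.183%) all lay below. The calls depended on single arrays and on the pools: 0 probes passed without any 1 of infrarenal arrays 1, 8 and 12 or suprarenal arrays 6, 8 and 11, 12 passed without suprarenal array 1, and 0 passed with the pool as a block.

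Fast sarcomere genes had the highest median difference of the 31 lists. Of 12 such genes 11 were measured and 10 had positive differences. In this list 6 were called (0.0945% of all genes) and the median was 2.53 log2 units. Mylpf, the regulatory myosin light chain of fast fibres, read 5.90 and 5.25 on infrarenal arrays 8 and 11 and 4.93, 5.09 and 6.06 on suprarenal arrays 1, 8 and 12. On the low side it read 2.94, 4.16 and 3.05 on infrarenal arrays 1, 6 and 12 and 1.62 and 1.73 on suprarenal arrays 6 and 11. All high arrays lay above all low arrays, suprarenal 12 was the highest of all and infrarenal 6 the highest of the low ones. The difference was 2.94 ± 0.35 (SE, n = 5 against 5; adjusted p = 0.0269, limma). The 3 subunits of the fast troponin complex, which hands the calcium signal to the thin filament, followed the same order of sides. Tnnt3, troponin T, differed by 3.34 ± 0.40, with 4.31 to 5.39 on the high and 0.31 to 3.31 on the low arrays. Tnnc2, the calcium-binding troponin C, differed by 2.89 ± 0.34 and ranged from 5.48 to 6.55 against 2.05 to 4.74. Tnni2, the inhibitory subunit, differed by 2.53 ± 0.30, with 6.21 to 7.30 against 3.37 to 5.78. None of these 3 overlapped between the sides, and in each the highest low array was infrarenal 6, which also lay nearest the Acta1 cutoff.

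The myosin heavy chain of the fastest fibres was called as well, but its sides overlapped. Myh4 read 4.74 and 4.01 on infrarenal arrays 8 and 11 and 3.84, 2.62 and 4.53 on suprarenal arrays 1, 8 and 12. Its low side held 0.46, 2.92 and 1.50 on infrarenal arrays 1, 6 and 12 and -0.54 and 0.018 on suprarenal arrays 6 and 11. Suprarenal 8 lay under infrarenal 6, and the difference was 3.33 ± 0.48 (adjusted p = 0.0406, limma). A dimmer probe of Myh4 differed by 2.80 and did not pass (adjusted p = 0.569, limma). Mybpc2, the fast myosin-binding protein C, differed by 2.03 ± 0.30, with 3.87 to 5.15 against 2.10 to 3.86. Actn3, an alpha-actinin that anchors actin in fast fibres, and Myl1, their essential light chain, did not pass, at 2.66 ± 0.43 and 1.80 ± 0.28 (adjusted p = 0.077 and 0.0693). Actn3 was at 1.45 on suprarenal array 8, within the low side's -0.50 to 2.55, and between 3.22 and 4.23 on the other high arrays. Myh1, of another fast fibre type, was dim and differed by 1.81 ± 0.54 (adjusted p = 1). Myh3 and Myh8, the embryonic and perinatal myosins, had overlapping sides, with Myh8 at 0.11 to 1.82 on the high and 0.19 to 1.97 on the low arrays. Myosin heavy chain genes are close copies of each other, so a probe may read more than its named gene.

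**Figure D1:**
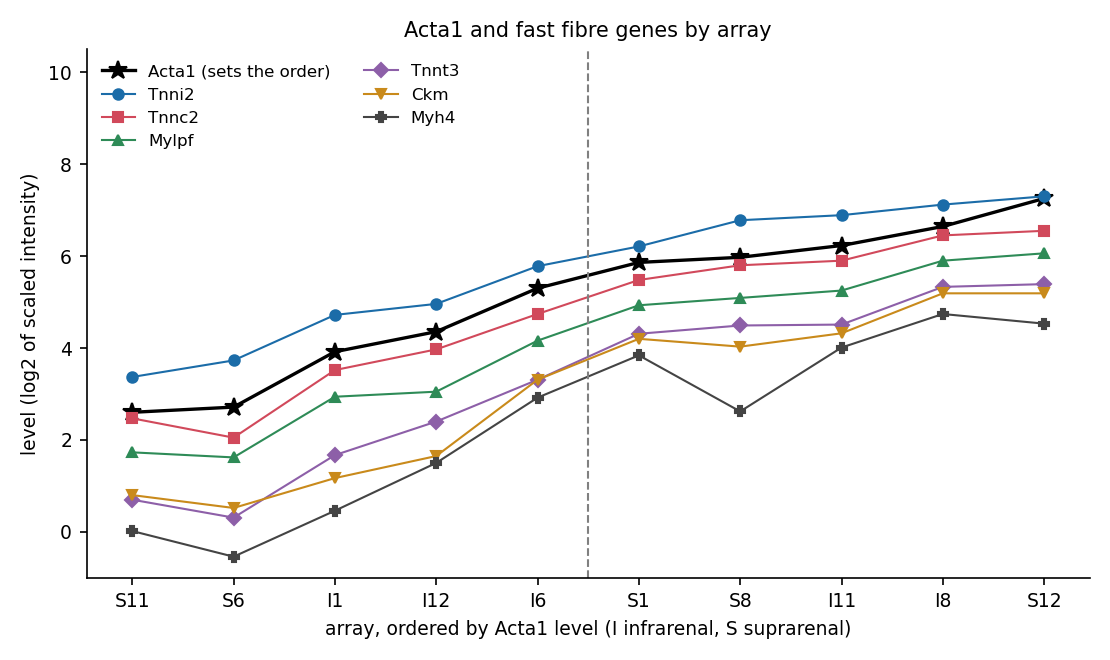
Levels of Acta1, Tnni2, Tnnc2, Mylpf, Tnnt3, Ckm and Myh4 (log2 of scaled intensity) on each of the 10 arrays, ordered by Acta1, with I for infrarenal, S for suprarenal, the pool number after it and the cutoff as a dashed line. The levels climb along the Acta1 order, from 1.73 for Mylpf on S11 to 6.06 on S12, and Myh4 dips to 2.62 on S8.

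Genes that release and recover calcium showed the same pattern in part. Of 21 listed, 19 were measured and 18 had positive differences, with a median of 0.91. In this list 2 were called (0.0945% of all genes) and 9 did not overlap between the sides (0.623% of all genes). Atp2a1, the calcium pump of fast fibres, read 6.48 and 5.94 on infrarenal arrays 8 and 11 and 5.66, 5.61 and 6.63 on suprarenal arrays 1, 8 and 12. On the low arrays it was 3.81, 5.21 and 3.87 in infrarenal 1, 6 and 12 and 3.02 and 2.42 in suprarenal 6 and 11. No low array reached a high one, and the difference was 2.58 ± 0.35 (adjusted p = 0.0328, limma). Trdn, triadin, which ties the release channel to calsequestrin, differed by 2.48 ± 0.34 and was also called. A dimmer probe of Trdn differed by 0.67 and was not called. Cacna1s, the voltage sensor, and Ryr1, the release channel it opens, differed by 2.11 ± 0.35 and 2.01 ± 0.34 with no overlap, and neither passed (adjusted p = 0.0792 and 0.0981). Ryr1 had 4 dimmer probes with differences from -0.30 to 1.41. Pvalb, the calcium buffer parvalbumin of fast fibres, differed by 3.20 ± 0.52 (adjusted p = 0.0792), with 4.42 on suprarenal array 8 under the 5.04 of infrarenal array 6. Mrln, the small pump inhibitor myoregulin, and Dhrs7c, a reticulum enzyme, differed by 1.27 ± 0.22 and 1.61 ± 0.30 (adjusted p = 0.121 and 0.178).

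Energy genes of muscle were divided. Of 17 listed, 16 were measured, 10 had positive differences and 4 were called (0.0945% of all genes), while the list's median was 0.35. Ckm, the muscle creatine kinase, read 5.19 and 4.32 on infrarenal arrays 8 and 11 and 4.20, 4.03 and 5.19 on suprarenal arrays 1, 8 and 12. The low arrays held 1.17, 3.31 and 1.65 in infrarenal 1, 6 and 12 and 0.52 and 0.80 in suprarenal 6 and 11. The sides did not overlap and differed by 3.26 ± 0.41 (adjusted p = 0.0269, limma). Pgam2 and Eno3, the muscle forms of 2 glycolytic enzymes, phosphoglycerate mutase and enolase, differed by 2.39 ± 0.30 and 1.91 ± 0.26, and Cox6a2, the striated muscle form of a cytochrome oxidase subunit, by 2.72 ± 0.38. Ckmt2, the mitochondrial creatine kinase, differed by 2.92 ± 0.62 and did not pass (adjusted p = 0.329). In this list 5 genes did not overlap between the sides (0.623% of all genes). The 6 members with negative differences all overlapped. Of these, Phka1, Gys1 and Fbp2 differed by -0.097, -0.34 and -0.35, and the rest are genes that brown fat also uses. Cox7a1 and Cox8b, cytochrome oxidase subunits, and Fabp3, a fatty acid carrier, lay between 3.91 and 6.14, 6.36 and 8.53, and 4.81 and 6.25 on the high arrays. On the low arrays they lay between 3.05 and 6.31, 6.46 and 8.52, and 3.84 and 6.66, so all 3 overlapped.

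The scaffold of the sarcomere held 2 called genes, against 0.0945% called of all genes. Of 28 genes of the Z disc, M band and titin 18 were measured and 15 had positive differences. In this list 5 did not overlap (0.623% of all genes) and the median was 0.35. Ttn, titin, the spring that spans the sarcomere from edge to centre, read 4.78 and 3.69 on infrarenal arrays 8 and 11 and 3.48, 3.77 and 4.87 on suprarenal arrays 1, 8 and 12. It read 1.97, 2.78 and 1.71 on infrarenal arrays 1, 6 and 12 and 0.42 and 0.30 on suprarenal arrays 6 and 11. Every high array was above every low one, with a difference of 2.88 ± 0.38 (adjusted p = 0.0308, limma). Of its 5 other, dimmer probes none passed, and their differences ran from 0.041 to 1.68. Myoz1, which ties the Z disc of fast fibres to calcineurin, differed by 1.81 ± 0.25 (adjusted p = 0.0328). Trim54 and Myot, of the Z disc and its ubiquitin ligases, differed by 2.68 ± 0.50 and 2.49 ± 0.50 without overlap and without passing (adjusted p = 0.172 and 0.233). Cmya5 and Ldb3, also Z disc proteins, differed by 1.35 ± 0.24 and 0.94 ± 0.22 (adjusted p = 0.121 and 0.509). Tcap, which caps titin, overlapped, at 4.56 to 5.75 on the high and 4.15 to 5.61 on the low arrays.

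The called genes left were Tpm1, Tmod4 and Krtap14. Tpm1, a tropomyosin with forms in striated and smooth muscle, stood in the smooth muscle list and differed by 1.91 ± 0.24 (adjusted p = 0.0269, limma), with 3.08 to 4.16 on the high and 1.16 to 2.09 on the low arrays. Tmod4, the skeletal muscle tropomodulin that caps the thin filament, was in no list and differed by 2.61 ± 0.35 (adjusted p = 0.0312). Krtap14, a keratin-associated gene of hair, was in no list either. Its probe read -0.52 to 0.72 on the high and -4.05 to -1.13 on the low arrays, a difference of 2.64 ± 0.39 (adjusted p = 0.045), and its level was dim throughout. The 4 unnamed probes differed by 1.94, 2.30, 2.37 and 2.83.

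Acta1 and 3 of the called genes are shown by their promoters because each holds a MEF2 box or a CArG box, sequences known to bind muscle regulators. This choice does not show shared regulation, which was not tested. The 250 bases before the RefSeq start on GRCm38.p6 were searched on both strands for the E-box CANNTG, bound by the MyoD family, the MEF2 box and the CArG box of serum response factor, and TATAAA. The first 3 motifs are in capitals, and overlapping E-boxes and boxes of other kinds were not merged. Each sequence is on the gene's own strand, 5′ to 3′.
Acta1, chr8:123894776-123895025, minus strand: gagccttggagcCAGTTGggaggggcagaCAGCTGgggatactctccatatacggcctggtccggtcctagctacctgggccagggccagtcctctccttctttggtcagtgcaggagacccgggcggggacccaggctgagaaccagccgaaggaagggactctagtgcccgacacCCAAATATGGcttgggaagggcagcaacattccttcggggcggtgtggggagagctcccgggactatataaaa
Myh4, chr11:67237562-67237811, plus strand: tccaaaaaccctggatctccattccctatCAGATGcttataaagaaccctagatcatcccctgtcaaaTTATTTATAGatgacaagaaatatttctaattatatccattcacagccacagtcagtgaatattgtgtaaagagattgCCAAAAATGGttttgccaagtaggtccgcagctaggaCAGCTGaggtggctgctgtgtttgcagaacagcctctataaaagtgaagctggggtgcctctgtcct
Pgam2, chr11:5803797-5804046, minus strand: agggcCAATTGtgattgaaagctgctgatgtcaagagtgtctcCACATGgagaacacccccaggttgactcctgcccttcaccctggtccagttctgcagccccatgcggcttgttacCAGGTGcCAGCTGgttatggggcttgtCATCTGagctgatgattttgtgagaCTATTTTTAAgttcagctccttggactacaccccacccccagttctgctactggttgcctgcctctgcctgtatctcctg
Ttn, chr2:76982548-76982797, minus strand: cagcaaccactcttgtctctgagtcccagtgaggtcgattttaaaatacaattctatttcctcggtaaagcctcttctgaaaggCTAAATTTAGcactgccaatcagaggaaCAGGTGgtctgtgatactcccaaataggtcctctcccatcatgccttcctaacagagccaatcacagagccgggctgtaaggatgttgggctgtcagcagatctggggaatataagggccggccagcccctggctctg
The CArG boxes of Acta1 and Myh4 began at -73 and -104 from the start, and the MEF2 boxes of Myh4, Pgam2 and Ttn at -182, -80 and -166. Promoters were matched for 12 of the 17 called genes. Of these, 12 held an E-box, 3 a MEF2 box, 1 a CArG box and 1 TATAAA, against 66.2%, 2.92%, 1.47% and 12.4% of 32851 promoters of the same length. All 11 slow sarcomere genes were matched, and 11, 1, 1 and 3 of them held these motifs. A match is a description of the sequence, not a measured binding site.

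In the pools with an array on each side, the sign of a gene whose sides did not overlap was fixed in advance. Mylpf, Ckm and Ttn are such genes, so their sign adds no support and only the sizes are described. Within pools 1, 11 and 12, Mylpf was higher on the Acta1-high array by 1.99, 3.52 and 3.01 log2 units, Ckm by 3.03, 3.52 and 3.54 and Ttn by 1.51, 3.39 and 3.16. In pools 1 and 12 the high array was suprarenal and in pool 11 infrarenal. With the pool as a block, which leaves the comparison to these 3 pools, limma called 0 probes at an adjusted p under 0.05 (836 higher and 841 lower at an unadjusted p under 0.05). The 17 genes kept a positive sign in this fit, as did 46.5% of all genes, with Mylpf at 3.18 ± 0.42 (adjusted p = 0.314). The median of the fast sarcomere list was 2.77 with the block. The calls were thus lost with the block although the differences were of similar size, with Mylpf at 2.94 without it. The block adds terms to a fit of the same few arrays, so 0 calls does not show that the difference is absent within pools.

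**Figure D2:**
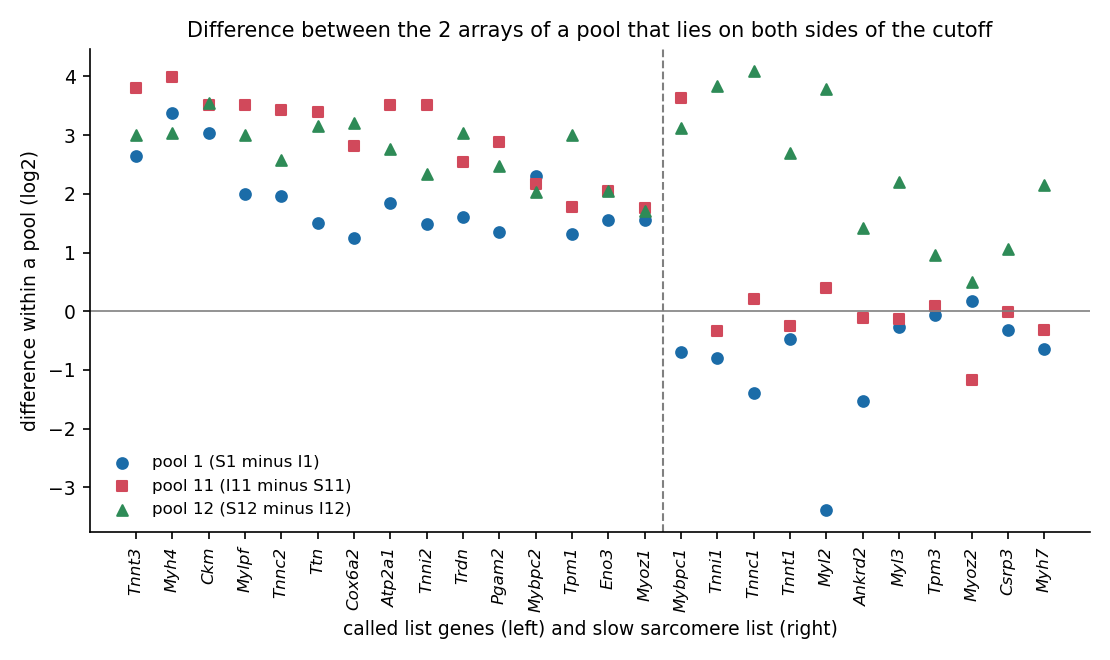
Difference in log2 level between the 2 arrays of pools 1, 11 and 12, Acta1-high minus Acta1-low array, for called genes of the lists (left of the dashed line) and all slow sarcomere genes (right). All called genes lie above 0 in each pool, which was fixed in advance for those whose sides did not overlap. The slow genes are high in pool 12, up to 4.09 for Tnnc1, and on both sides of 0 in pool 11. In pool 1 they are below 0 for 10 of 11 genes, down to -3.39 for Myl2.

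Slow fibre genes followed 2 arrays and not the division. All 11 slow sarcomere genes had positive differences, with a median of 0.49, but 0 were called (1 at an unadjusted p under 0.05) and 0 had sides that did not overlap. The mean of the list was 1.48 and 2.36 log2 units on suprarenal arrays 8 and 12 and between -0.85 and 0.27 on the other 8 arrays. Myl2, the regulatory light chain of slow and heart muscle, read 2.11 and 3.31 on suprarenal arrays 8 and 12. On the other high arrays, infrarenal 8 and 11 and suprarenal 1, it read -4.58, -2.36 and -2.83. Its low side held 0.56, -3.58 and -0.47 on infrarenal arrays 1, 6 and 12 and -2.33 and -2.76 on suprarenal arrays 6 and 11. The 3 lower of the high arrays thus lay in or under the range of the low side, and the difference was 0.55 ± 1.39 (adjusted p = 1, limma).

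The slow troponin genes and their partners showed the same 2 arrays. Tnnt1, Tnni1 and Tnnc1, the slow T, I and C subunits, read 1.73, 1.09 and -0.46 on suprarenal array 8 and 2.57, 2.66 and 0.91 on suprarenal array 12. On the other 3 high arrays Tnni1 lay between -1.57 and -1.24 and Tnnc1 between -5.17, the floor, and -3.40. On the low arrays Tnni1 ranged from -2.39 to -0.78 and Tnnc1 from the floor to above -3.18, its level on infrarenal 12, so those 3 arrays were not above the low side. Differences were 0.56 ± 0.48 for Tnnt1 and 1.10 ± 0.74 for Tnni1 (adjusted p = 1 for each). Myl3, the slow essential light chain, read 3.51 and 4.58 on these arrays and 2.34 to 2.88 on the other 8, and differed by 0.41 ± 0.31 (adjusted p = 1). Sln, sarcolipin, which restrains the calcium pump, was at 3.20 and 3.23 there and between -0.38 and 0.96 elsewhere. Mb, myoglobin, the oxygen store of slow and oxidative fibres, was at 6.22 and 6.61 and between 1.22 and 3.87 elsewhere. Myh7, the slow myosin heavy chain, was dim, with -2.59 and -0.97 on suprarenal arrays 8 and 12 and -4.67 to -2.58 on the rest.

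Mybpc1, the slow myosin-binding protein C, was an exception in the slow list. It read 3.12 and 2.44 on infrarenal arrays 8 and 11 and 0.40, 3.06 and 4.18 on suprarenal arrays 1, 8 and 12. The low arrays held 1.10, 0.34 and 1.06 in infrarenal 1, 6 and 12 and -0.22 and -1.19 in suprarenal 6 and 11. Apart from suprarenal 1, the high arrays lay above all low ones, with a difference of 2.60 ± 0.60 that did not pass (adjusted p = 0.466). With suprarenal arrays 8 and 12 left out together, a choice made after seeing these values, the slow list's median was -0.23, and Myl2, Tnnt1, Tnni1 and Myl3 had differences of -1.59, -0.26, -0.11 and -0.044. In the same fit the fast list's median was 2.14, and 13 probes were called, with 11 of the 17 genes among them.

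**Figure D3:**
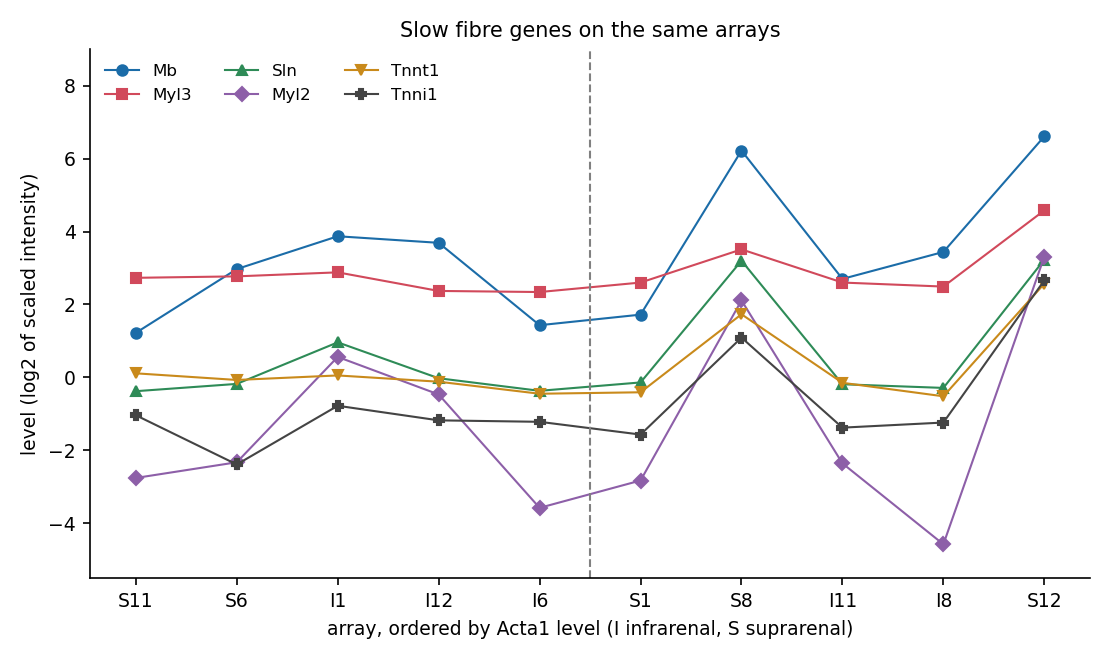
Levels of Mb, Myl3, Sln, Myl2, Tnnt1 and Tnni1 (log2 of scaled intensity) on the 10 arrays in the order of Acta1, with the cutoff as a dashed line. The 6 genes peak together on S8 and S12, where Mb is at 6.22 and 6.61, and the other 3 arrays right of the cutoff are at the level of those on the left.

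Genes that regulate or attach muscle fibres held no call. Of 16 myogenic and satellite cell genes measured of 17, 13 had positive differences, 2 did not overlap (0.623% of all genes), 0 were called and the median was 0.19. The mean level of this list lay between -0.82 and -0.52 on the high and between -1.27 and -0.83 on the low arrays, close to each other but without overlap. Mstn, myostatin, which limits muscle growth, differed by 1.67 ± 0.36, with -0.66 to 0.72 against -2.56 to -0.76 and no overlap (adjusted p = 0.332, limma). Myf6, a MyoD-family factor kept in mature fibres, differed by 1.07 ± 0.28 without overlap at a dim level (adjusted p = 0.785), and Vgll2, a cofactor in muscle, by 0.94 ± 0.34 (adjusted p = 1). Myod1, Pax7 and Myog, which mark satellite cells and their differentiation, overlapped, with Myod1 at -1.71 to -0.95 on the high and -2.89 to -1.28 on the low arrays. The 11 neuromuscular junction genes had a median of 0.14 with 7 positive. The 13 dystrophin complex genes measured of 15 had a median of -0.0024 with 6 positive, and Capn3, a muscle protease grouped with them, differed by 0.62 ± 0.20 (adjusted p = 1). Tendon genes, 10 of 10 measured, had a median of 0.08 with 6 positive. These 4 lists held 0 called genes, and 3, 0, 1 and 1 at an unadjusted p under 0.05.

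Heart and smooth muscle genes did not follow the fast sarcomere. Of 15 heart genes 12 were measured, 4 had positive differences and the median was -0.089. Actc1, the heart actin, a close copy of Acta1, differed by 1.35 ± 0.43 (adjusted p = 1, limma), with 3.32 to 5.49 against 2.72 to 4.69. A probe for it could read Acta1 in part, and this was not tested. Of 21 smooth muscle contractile genes 20 were measured, 11 had positive differences and the median was 0.012. Tpm1 was the 1 gene called (0.0945% of all genes). Acta2, the smooth muscle actin of the aortic wall, lay between 8.53 and 8.72 on the high and between 8.44 and 8.76 on the low arrays. Its sides overlapped fully, with a difference of -0.0031 (95% interval -0.19 to 0.19), and its second probe gave -0.013. Des, the desmin shared by smooth and striated muscle, and Actg2, a smooth muscle actin, differed by 0.57 ± 0.23 and 0.30 ± 0.12 (adjusted p = 1 for each).

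**Figure D4:**
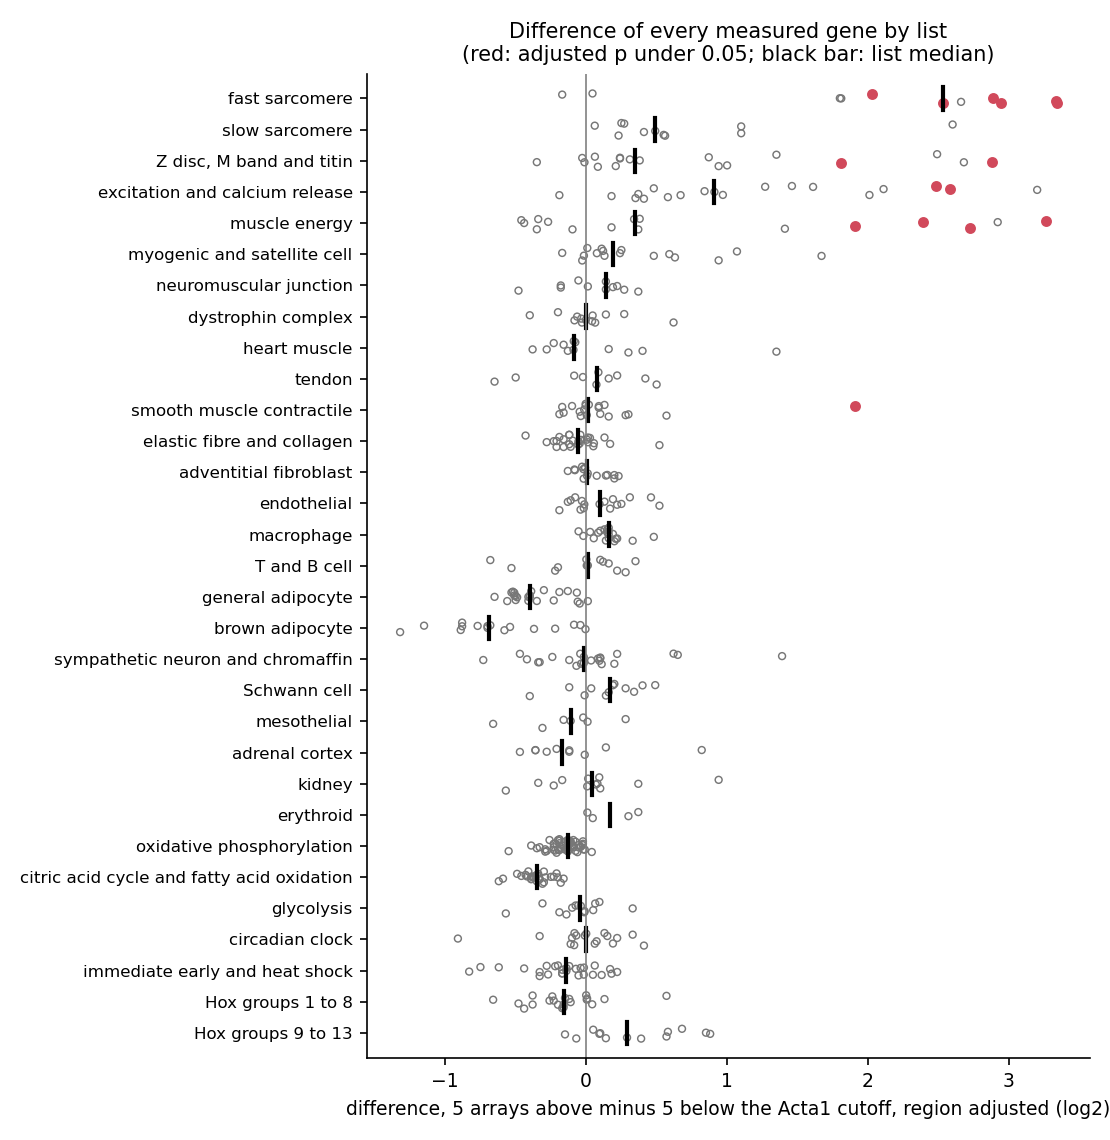
Difference of each measured gene between Acta1-high and Acta1-low arrays (log2, adjusted for region), 1 point per gene, by list, with called genes in red and list medians as black bars. Red points appear in the fast sarcomere, scaffold, calcium, energy and smooth muscle lists, and the medians run from 2.53 for the fast sarcomere to -0.69 for brown adipocyte genes.

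Fat and mitochondrial genes were lower on the Acta1-high arrays as lists, by less than the spread between arrays and with 0 genes called. Differences were negative in 16 of 16 brown adipocyte genes measured, with a median of -0.69, and in 22 of 23 general adipocyte genes, with -0.40. They were negative in 28 of 28 citric acid cycle and fatty acid oxidation genes (median -0.35) and in 50 of 51 oxidative phosphorylation genes (median -0.13). At an unadjusted p under 0.05 there were 1, 0, 1 and 0 genes in these 4 lists. The same lists were also lower in infrarenal than in suprarenal aorta in this fit. Their median regional differences were -0.69, -0.52, -0.57 and -0.41 in the same order, against -0.048 for all genes. Elovl3, a fatty acid elongase induced in brown fat, read 1.12 and 0.84 on infrarenal arrays 8 and 11 and 4.02, 2.52 and -0.11 on suprarenal arrays 1, 8 and 12. The low arrays held 3.57, 0.17 and 1.31 in infrarenal 1, 6 and 12 and 3.80 and 4.37 in suprarenal 6 and 11. The sides overlapped, and the difference was -1.32 ± 0.76 (adjusted p = 1, limma). Acot11, a thioesterase of brown fat, differed by -0.77 ± 0.25, and Pnpla2 and Pck1, of fat breakdown and glyceride synthesis, by -0.51 ± 0.33 and -0.49 ± 0.30. Ogdh and Acads, of the citric acid cycle and fatty acid oxidation, differed by -0.42 ± 0.16 and -0.59 ± 0.33, and the respiratory chain subunits Sdhc and Cox8a by -0.28 ± 0.15 and -0.26 ± 0.17 (adjusted p = 1 for each). Ucp1, which uncouples brown fat mitochondria, lay between 4.37 and 8.25 on the high and between 5.64 and 8.43 on the low arrays.

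The mean level of the brown adipocyte list was 2.62 and 2.12 on infrarenal arrays 8 and 11 and 3.34, 3.18 and 1.35 on suprarenal arrays 1, 8 and 12. It was 3.34, 1.81 and 2.67 on infrarenal arrays 1, 6 and 12 and 3.57 and 3.69 on suprarenal arrays 6 and 11. The highest low arrays were both suprarenal, the lowest arrays were 1 on each side, and the sides overlapped over most of their range. With the pool as a block the medians were larger, at -1.24 for the brown and -0.76 for the general adipocyte list, -0.64 for the citric acid cycle and fatty acid oxidation list and -0.36 for oxidative phosphorylation. Without suprarenal arrays 8 and 12 they were smaller, at -0.20, -0.071, -0.092 and -0.013 in the same order. Without infrarenal array 6 and suprarenal array 12, the arrays with least brown fat signal, they were -0.58, -0.26, -0.30 and -0.13, and 35 probes were called higher, the 17 genes included. A fit that included the brown adipocyte score called 14 of the 17 genes.

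**Figure D5:**
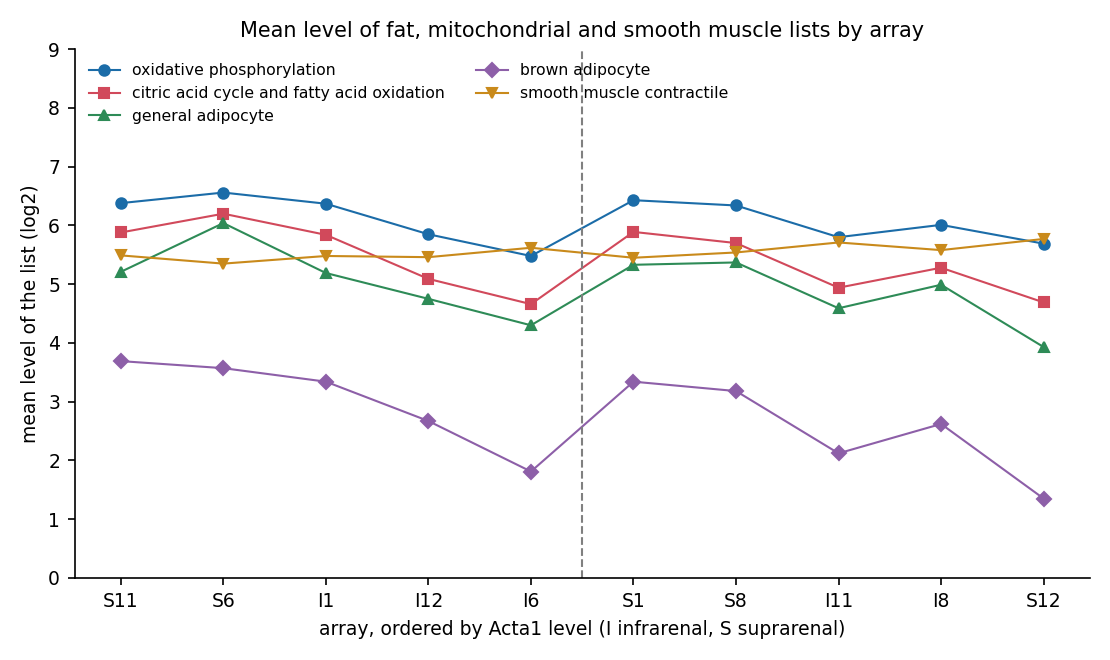
Mean level (log2 of scaled intensity) of the oxidative phosphorylation, citric acid cycle and fatty acid oxidation, general adipocyte, brown adipocyte and smooth muscle contractile lists on the 10 arrays in the order of Acta1, with the cutoff as a dashed line. The fat and mitochondrial lists dip on I6 and S12, where the brown list is at 1.81 and 1.35, while the smooth muscle list stays between 5.35 and 5.77.

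Lists of the other cells of the vessel and its surroundings held 0 called genes. Macrophage genes had positive differences in 18 of 20 cases with a median of 0.16, and C1qb, a chain of complement C1q, and Tyrobp, a myeloid signalling adaptor, differed by 0.22 ± 0.11 and 0.21 ± 0.10 (adjusted p = 1, limma). Endothelial genes had a median of 0.095, with Vwf, von Willebrand factor, at 0.46 ± 0.12 (adjusted p = 0.824) and Tie1, a receptor kinase, at 0.31 ± 0.11. Schwann cell genes were positive in 9 of 12 cases (median 0.17), with S100b at 0.34 ± 0.12. Medians were -0.056 for elastic fibre and collagen genes, 0.006 for adventitial fibroblast, 0.012 for T and B cell, -0.017 for sympathetic neuron and chromaffin (0.69 without suprarenal arrays 8 and 12), -0.11 for mesothelial, -0.17 for adrenal cortex, 0.041 for kidney and 0.17 for erythroid genes. The glycolysis list, without the muscle forms, had a median of -0.047 and Pfkl, the liver phosphofructokinase, a difference of -0.57 ± 0.28. Clock genes had a median of 0.00064. The median of immediate early and heat shock genes was -0.14, with the early response factor Nr4a1 at -0.75 ± 0.29 and the small heat shock protein gene Hspb1 at 0.22 ± 0.08. At an unadjusted p under 0.05 there were 3 genes in this list and 3 in the endothelial one, and 0 or 1 in each of the others.

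Hox genes, which mark position from head to tail, had mostly positive differences in their posterior groups, and none was called. Of 13 measured genes of groups 9 to 13, 11 had positive differences, with a median of 0.29 and 0 called, and of 21 in groups 1 to 8, 5 had, with a median of -0.16. Hoxd13 was at -2.53 to -2.05 on the high and -4.14 to -2.54 on the low arrays, a dim gene whose sides did not overlap, and it differed by 0.88 ± 0.31 (adjusted p = 1, limma). Hoxa10 read 3.60, 3.69, 3.25, 2.18 and 3.76 on infrarenal 8 and 11 and suprarenal 1, 8 and 12. It read 3.49, 3.77, 2.08, 2.47 and 2.44 on infrarenal 1, 6 and 12 and suprarenal 6 and 11. Its levels fell into a lower and a higher set on both sides of the cutoff, with suprarenal 8 in the lower and infrarenal 1 and 6 in the higher one, and the difference was 0.57 ± 0.34 (adjusted p = 1).

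The region itself, which the rule did not use, gave no called probe once the Acta1 side was in the fit. Of 36060 probes 0 (0%) passed at a Benjamini-Hochberg adjusted p under 0.05 by limma, with 1144 higher and 1701 lower in infrarenal aorta at an unadjusted p under 0.05 and a smallest adjusted p of 0.629. Fast and slow genes leaned in opposite directions, and neither lean can be told apart from the make-up of the sides. On the low side Acta1 itself read 3.92, 5.30 and 4.36 on infrarenal arrays 1, 6 and 12 and 2.71 and 2.60 on suprarenal arrays 6 and 11. The slow list's mean level was highest on suprarenal arrays 8 and 12, at 1.48 and 2.36. The fast sarcomere list had a median regional difference, infrarenal minus suprarenal, of 0.92, with 1 of 11 genes lower in infrarenal aorta. The slow list had -0.69, with 9 of 11 lower, against 59.9% of all genes. Tnni2 and Myh4 differed between regions by 0.92 ± 0.30 and 1.30 ± 0.48, and Tnnt1 and Myl2 by -0.91 ± 0.48 and -1.48 ± 1.39 (adjusted p = 0.629, 0.629, 0.638 and 0.776).

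Whether the difference between the sides was the same in both regions was asked with an interaction term, which rests on 2 infrarenal Acta1-high and 2 suprarenal Acta1-low arrays. No probe passed (0%; 176 positive and 767 negative at an unadjusted p under 0.05, limma). The fast genes had negative terms, which means a smaller difference in infrarenal aorta, with Mylpf at -1.49 ± 0.56 and Tnnt3 at -1.77 ± 0.64 (adjusted p = 1 for each). Acta1 was likewise higher on the infrarenal than on the suprarenal Acta1-low arrays, so its level cannot be told apart from the region in these terms. The largest in the slow list were Myl2 at -5.72 ± 2.30 and Tnnc1 at -4.68 ± 1.61 (adjusted p = 1 for each). Both slow-rich arrays are suprarenal and Acta1-high, so their part in this term cannot be told apart from the region.

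Over the 10 arrays, 9 of the 10 genes whose levels were most like those of Acta1 belonged to the muscle lists, 5 of them to the fast sarcomere. Among 8909 genes brighter than the median gene, Pearson's r with Acta1 was 0.995 for Mylpf, 0.992 for Tnnc2 and Tnnt3, 0.991 for Tnni2 and Atp2a1, 0.988 for Ttn, 0.984 for Pgam2, 0.978 for Ckm and 0.968 for Myh4. The 10th was Hjv, hemojuvelin, a co-receptor in iron regulation, with r = 0.948 and levels of 3.50 to 4.93 on the high and 2.49 to 3.78 on the low arrays. Hjv was in no list, and its sides overlapped by suprarenal arrays 1 and 8, at 3.50 and 3.65, which lay under infrarenal array 6. These correlations are a description over arrays that share pools and scaling, and the genes were ranked by them.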

How the data were processed

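Single-colour arrays were read for 10 pooled RNA samples, 5 from infrarenal and 5 from suprarenal aorta. The deposited intensity values are linear and were scaled by the authors, since every array's median lay between 1.001 and 1.003. The sources used here do not state the scanner, the background correction or the scaling method. Over 36227 probes, 1968 values were blank and 1755 did not exceed 0. Intensities under 0.0278 (percentile 1 of positive values) were raised to it, 5328 in all, and log2 was taken, which compresses differences of dim probes. A probe needed 3 values in each region, which dropped 166, and the Acta1 probe was left out. The scaling presumes that few probes vary.

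Symbols were those of GEO's platform annotation, renewed by Entrez identifier (21487 of 21615 probes with 1 symbol; 681 had several and 13931 none) with the RefSeq table of GRCm38.p6. The probe of highest mean stood for each of 17991 genes. A list's score is the mean level of its measured genes on an array.

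The fit used limma 3.58.1 under R 4.3.3 (lmFit, eBayes with trend, two-sided), with side and region as terms and Benjamini-Hochberg adjustment over all probes at 0.05. The pool was a block in an alternative, since the series' design text says that each pool of mice gave both parts, and arrays that share a number in their titles were taken as 1 pool. Paired arrays' deviations from the fitted means of region and side correlated at 0.1143, -0.131, -0.1884, 0.1556 and 0.0319 in pools 1, 6, 8, 11 and 12. The p-values of the main fit measure the spread between arrays, each of a pool of 2 mice. They take the arrays as independent although arrays were paired by pool, and the precision is limited by how many arrays there are.

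The division of the arrays, the 31 gene lists (527 of 598 entries matched) and the tests were chosen with earlier results of these data known. All members of the muscle lists could be named; of other lists, up to 4 called genes or the 2 of smallest p, and of genes in no list the called ones. Acta2, Ucp1 and Hoxa10 were named after their values were seen. Likeness to Acta1 was ranked over genes above the median level. Alternatives were other normalizations, filters, covariates, and arrays or pools left out. The fit was tested on simulated data.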

Additional observations from a re-analysis of the deposited data

Results flagged for a closer look

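In sets of 5 arrays on 1 side of the Acta1 cutoff, 3 of 130 sets of list scores and gene levels had an array far from the other 4 by Dixon's test, where chance gives about 6. The mean level of the heart muscle list on suprarenal array 8 was -0.56 log2 units, against -0.11 to 0.044 on the other Acta1-high arrays. The mesothelial list on suprarenal array 6 was at -0.54, against -1.38 to -1.22 on the other Acta1-low arrays. Tnni1, the slow troponin I gene, read -2.39 on suprarenal array 6 and -1.22 to -0.78 on the other Acta1-low arrays.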

How the results depend on the processing

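The count of 21 higher probes depended on the fit and on single arrays. It was 0 with the pool as replicate block, with no region covariate, with no variance trend and with RNA input as covariate, 12 after quantile normalization, and 67, with 1 lower, with the Acta1 level in place of the sides. Leaving out an array gave 0 to 30 higher probes and 0 to 1 lower (0 higher without infrarenal 1, 8 or 12 or suprarenal 6, 8 or 11, and 12 without suprarenal 1), and leaving out a pool gave 0 to 12 (0 without pool 1, 8 or 11, 11 without pool 6, 12 without pool 12). It was 13 without suprarenal 8 and 12 and 35 without infrarenal 6 and suprarenal 12, pairs chosen after seeing the data. In these settings the cause was not tested. Interaction calls, 0 as reported, were 0 to 3 positive and 0 to 2 negative with an array or a pool left out, with 3 without infrarenal array 8 or pool 8. The region gave 0 calls in each such setting and with the block. The difference in RNA input was -0.0765 to -0.0165 µg with an array left out.

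The 17 called genes kept their sign in all 24 settings, and 173 of 408 pairs of gene and setting kept the call. Apart from the slope on Acta1, their differences lay between 1.52 and 3.94. Of 43 other named genes, 4 reversed somewhere. Myl2 had -0.29 with the block, -0.22 with the brown adipocyte score, -0.029, -0.19 and -0.27 without suprarenal 6, 11 or 12, -0.46 to 1.90 with a pool left out (-0.46 and -0.11 without pools 6 and 11), -0.67 without infrarenal 6 and suprarenal 12 and -1.59 without suprarenal 8 and 12. Without the last pair Myl3, Tnnt1 and Tnni1 had -0.044, -0.26 and -0.11. Medians of lists moved beyond 1 SD in 4 of 713 cases. This SD is that of the list's array scores around the means of each region and side, and arrays that stand apart widen it. The cases were heart muscle, 0.096 with the block, and myogenic genes, 0.41 without suprarenal 11 or pool 11. The last was calcium release, 0.55 without infrarenal 6 and suprarenal 12. The slow list's median, 0.49 as reported and -0.23 without suprarenal 8 and 12, was not counted as moved. A low count thus does not show that the medians were stable. Probes near the floor limit what dim genes such as Myl2, Tnnc1 and Myh7 can show.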
